A study of Mus musculus with 2 samples.

Results

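Hes1-type cells were picked out of a young mouse medulloblastoma by the RNA they carried. A cell of the postnatal day 12 (P12) library was counted as Hes1-type when it had a molecule of at least 2 of the 7 markers Hes1, Hey1, Mgarp, Rcn3, Mfap2, Thrsp and Mxd4. It also had to carry a molecule of at most 1 of 11 excluded genes. The excluded genes mark mitosis (Cenpa, Hmmr, Ccnb2, Aspm), DNA replication (Hist1h1b, Hist1h1a, Cdc6, Dscc1) and glia (Sox10, Aldoc, Sparcl1). Molecules were counted as unique molecular identifiers (UMIs), and cells needed at least 500 UMIs with at most 20% of them mitochondrial. The rule was met by 465 of the 5723 kept P12 cells, a share of 8.13% (exact 95% interval 7.43 to 8.86). Both libraries of the study held 10512 kept cells. In the older library the same rule was met by 260 of 4789 cells, 5.43% (4.80 to 6.11).

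Both libraries were made by Drop-seq, a droplet method that tags the 3′ ends of messenger RNA from single cells, and each age gave 1 library. The tumour cells came from hGFAPcre;Ptchc/c mice at P12 and at postnatal days 24 to 30 (P24-30), so the groups share a genotype and no cells of an unaltered cerebellum were analysed here. In this model the human GFAP promoter drives Cre recombinase in neural stem and progenitor cells and their descendants, where Cre removes the conditional allele of Ptch1, which codes for the inhibitory receptor of Sonic hedgehog (SHH). The sources used here do not give the number of mice behind each library. With 1 library per age no value has a replicate check and no test was made. All intervals are exact 95% intervals that cover counting error only. Levels are given in CPM, the summed UMIs of a gene scaled to the same total in each set of cells.

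Granule neuron precursors of the cerebellum multiply under SHH while they hold the transcription factor Atoh1, and they leave the cycle as Neurod1 and later neuronal genes come on. SHH-driven medulloblastoma arises in this lineage. Hes1 and Hey1 are repressor targets of Notch receptors, which in the nervous system hold progenitors back from becoming neurons. Mxd4 is a MAX partner that opposes MYC at its DNA sites. Mfap2 is a protein of elastic microfibrils, Rcn3 a calcium-binding protein of the endoplasmic reticulum, Mgarp a mitochondrial protein and Thrsp a nuclear protein tied to fat synthesis.

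The promoters of Mxd4 and Mgarp are shown because each holds a motif of a pathway the markers belong to. Of the 7 markers, 5 were in the RefSeq promoter table of the mm10 build, namely Mgarp, Rcn3, Mfap2, Thrsp and Mxd4. The 250 bases before the start of each were searched on both strands for the MYC and MXD site CACGTG and for the RBPJ core TGGGAA, read as TTCCCA on the other strand. Capitals mark the motif. Mxd4 holds CACGTG, beginning 219 bases before its start, as do 6.02% of the 32851 promoters in the table. Mgarp holds TTCCCA, beginning 85 bases before its start, and 21.6% of promoters hold this core on either strand. None of the 5 holds CAGCTG, an E-box used by ATOH1 and NEUROD factors (13.0% of promoters), or the GLI motif GACCACCCA (0.225%). A match of letters says nothing of binding.
Mxd4, chr5:34187711-34187960, minus strand: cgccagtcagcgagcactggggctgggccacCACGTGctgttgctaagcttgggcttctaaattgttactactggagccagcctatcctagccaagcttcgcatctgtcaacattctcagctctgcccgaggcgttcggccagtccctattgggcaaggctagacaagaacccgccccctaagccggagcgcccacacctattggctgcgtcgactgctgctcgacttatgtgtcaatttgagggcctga
Mgarp, chr3:51396548-51396797, minus strand: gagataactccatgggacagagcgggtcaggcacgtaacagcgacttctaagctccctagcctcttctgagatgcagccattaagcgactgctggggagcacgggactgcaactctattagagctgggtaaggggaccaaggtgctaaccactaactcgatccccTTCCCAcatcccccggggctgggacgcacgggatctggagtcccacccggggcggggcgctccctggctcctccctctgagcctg

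The kept P12 cells held 11873881 UMIs. Hes1-type cells had a median of 1843 UMIs and 1189 genes, against 1799 UMIs and 1151.5 genes in the other P12 cells, with median mitochondrial shares of 7.97% and 7.47%. Other P12 cells with at most 1 excluded gene numbered 2456 and were shallower, at a median of 1509.5 UMIs. Barcodes that lay 1 base from another kept barcode belonged to 5 Hes1-type cells and 66 other P12 cells, and barcodes shared between the libraries could not be counted because the older file carries none. Ptch1, the targeted gene (chr13), had 176 CPM in Hes1-type cells and 154 CPM in the other P12 cells, a ratio of 1.14 (0.965 to 1.34). The sources used here do not give the deleted part of the gene, so this 3′ tag does not check the deletion.

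Some Hes1-type cells carried markers of other cell types. A molecule of at least 3 markers of 1 of 14 listed types was found in 22 of the 465, among them 9 with astrocyte, 7 with oligodendrocyte precursor and 4 with microglia markers, against 257 of the other 5258 cells. Myelin genes Mog and Mag, endothelial Flt1, Kdr and Cdh5, interneuron Gad1 and Pax2 and the T cell gene Lck were at 0 UMIs in Hes1-type cells. These zeros are not read as absence of a type, since other genes of the myelin, endothelial and interneuron lists had UMIs. The whole T cell list had only 6 UMIs in the other 5258 cells. In summed level the astrocyte list had 445 CPM in Hes1-type cells and 284 CPM in the others, and the microglia list 447 and 586 CPM. The highest ratios of all came from single cells. A lone Hes1-type cell held 3538 of the 3565 UMIs of Ttr, the choroid plexus transthyretin gene, 282 of 289 of Enpp2 and 171 of 188 of 1500015O10Rik. Another held all 95 UMIs of the pericyte gene Rgs5. Igfbp2 (56 of 65), Igf2 (45 of 73), Atp1b1 (27 of 40) and Chchd10 (21 of 29) likewise lay mostly in 1 cell each, and none of these genes is read as a feature of the population. With such cells in, the choroid plexus list had 4233 CPM in Hes1-type cells and 182 CPM in the others, and the pericyte list 108 and 7.59 CPM. The oligodendrocyte precursor list had 309 and 344 CPM, the oligodendrocyte list 138 and 132 CPM, the interneuron list 376 and 404 CPM and the erythroid list 25.7 and 99.2 CPM. The fibroblast (57.9 and 9.78 CPM), Purkinje (43.9 and 21.5 CPM), ependymal (17.1 and 2.38 CPM), endothelial (8.57 and 5.48 CPM) and unipolar brush lists (7.50 and 11.8 CPM) were low on both sides.

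The choice of cells used the markers themselves, so their high levels follow from the rule. Hey1 was present in 267 Hes1-type cells (57.4%), Mxd4 in 255 (54.8%), Hes1 in 196 (42.2%), Rcn3 in 121 (26.0%), Mgarp in 99 (21.3%), Mfap2 in 74 (15.9%) and Thrsp in 70 (15.1%). In 86 microglia-like P12 cells, which should lack most of these genes, 2 had Hes1 (2.33%) but 18 had Mxd4 (20.9%), at a median depth of 2079 UMIs. These 86 include 4 Hes1-type cells, which the rule chose for such markers. The 82 outside the rule held 1 UMI of Hes1 and 18 of Mxd4. The commonest pair was Hey1 with Mxd4, in 126 cells, before Hes1 with Hey1 in 88 and Hes1 with Mxd4 in 82. Just inside the threshold lay 339 cells with exactly 2 markers (72.9%), while 104 had 3, 22 had 4 or more and 1 had all 7. Just outside lay 1003 cells with 1 marker and few excluded genes, and 86 cells with 2 or more markers and exactly 2 excluded genes. Of all 800 cells with 2 or more markers, 335 failed on the excluded genes.

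Whether the markers go together was asked by choosing cells with the other 6 and reading the one left out. Hes1 (chr16:30064384-30067796, plus strand, by GENCODE) had 178.3 CPM in cells so chosen, against 94.8 CPM in the other kept P12 cells, a ratio of 1.88 (1.55 to 2.27). Mfap2 was highest in ratio, at 63.0 against 17.2 CPM, 3.65 (2.65 to 4.96). The remaining ratios were 2.51 for Rcn3, 2.27 for Mgarp, 2.26 for Mxd4, 2.18 for Thrsp and 1.60 (1.30 to 1.95) for Hey1 (chr3:8663359-8667256, minus strand). When the comparison was limited to other cells with at most 1 excluded gene, Hes1 had 1.97 (1.59 to 2.42) and Thrsp 2.54. Ratios fell for Mfap2 to 2.60, Mgarp to 1.87, Rcn3 to 1.84 and Mxd4 to 1.42 (1.14 to 1.75), with intervals above 1. Hey1 fell to 1.17 (0.946 to 1.44), an interval that holds 1. The markers were read from these same cells when they were proposed, so their going together is a description.

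**Figure D1:**
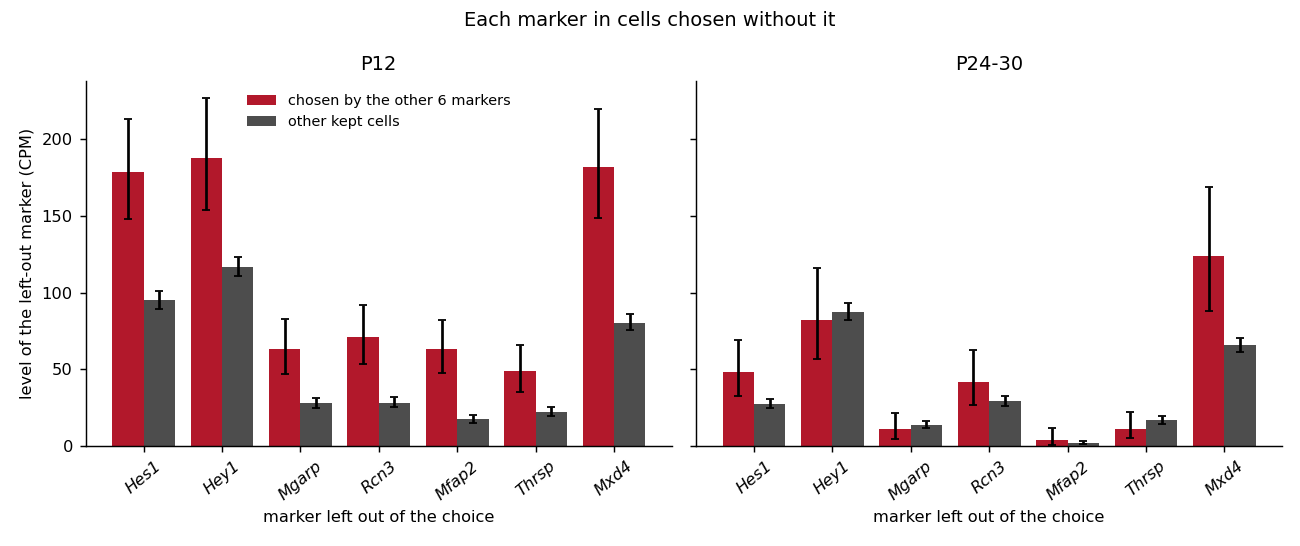
Level in CPM of each marker in cells chosen by the other 6 markers (red) and in the other kept cells (grey), at P12 (left) and P24-30 (right), with exact 95% counting intervals. At P12 all 7 markers are higher in the chosen cells, and at P24-30 only Hes1 and Mxd4 have a ratio whose interval lies above 1.

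Hes1-type cells were first set against all other kept P12 cells. Genes of chromosome separation were lower in them, which the excluded genes of the rule ask for, while Atoh1, the Hes family gene Hes6 and several matrix genes were higher. Of 9708 genes with at least 100 UMIs, 763 (7.86%) were at least 1.5-fold higher and 926 (9.54%) at least 1.5-fold lower. The median gene had a log2 ratio of 0.04. Counting error is part of these counts. With at least 300 UMIs per gene they were 232 and 490, but fewer genes are tested there, so the fall does not measure that error. The values of all these genes describe the cells, because the markers were proposed from the same cells.

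Cell division genes set the lower end. Of the 52 tested genes of the G2 and M phase list, 50 were lower and none higher, with a median log2 ratio of -3.09 against 0.04 over all genes, and their summed level was 4663 CPM in Hes1-type cells and 18692 CPM in the others. Ube2c, which loads ubiquitin for the exit from mitosis, had 10.7 CPM in Hes1-type cells and 490 CPM in the others. Prc1, which bundles microtubules in the dividing cell, had 27.9 and 565 CPM. Of the spindle gene Troap the Hes1-type cells held 0 UMIs, against 518 in the others, which is at least 14.7-fold lower at a floor of 3 counts. The mitotic kinase Plk1 had 1 UMI in Hes1-type cells against 906. S phase genes were less far apart. Of 47 tested, 20 were lower and 1 higher, with a median log2 ratio of -0.45 and summed levels of 6056 CPM in Hes1-type cells and 8581 CPM in the others. Ung, a uracil glycosylase of replicating DNA, stood highest at 1.64 (1.26 to 2.09), and the helicase subunit Mcm6 had 241 and 188 CPM, 1.28 (1.11 to 1.47), whereas the linker histone Hist1h1e had 0.256 (0.223 to 0.293). The low mitotic and replicative levels are those the rule selects, and no reading of cycle exit rests on them. The list of CDK inhibitors and exit genes was itself lower in 5 of 15 members and higher in 1, with Cdkn2d at 0.247 (0.152 to 0.38), Cdkn2c at 0.4 (0.255 to 0.601) and Cdkn1b, the inhibitor p27, at 0.837 (0.729 to 0.958).

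To take the excluded genes out of the comparison, the Hes1-type cells were next set against other P12 cells with at most 1 excluded gene, with cells of any listed type (typed cells) left out on both sides. This left 443 Hes1-type cells and 2314 others. The cell that held the Rgs5 UMIs met no listed type and stayed in. The pericyte list therefore still had 116 CPM in Hes1-type cells and 12.0 CPM in the others. The part of this cell in the levels of other genes was not tested. Of 9708 genes, 614 (6.32%) were at least 1.5-fold higher and 941 (9.69%) lower, with a median log2 ratio of 0.01. Many of these others carried neuron-like genes. Of all 2456 cells with few excluded genes, 1317 (53.6%) had at least 3 of 8 neuron-like markers, against 192 of the 465 Hes1-type cells (41.3%, 36.8 to 45.9). A further comparison therefore also left out neuron-like cells on both sides, with 257 Hes1-type cells and 1026 others. There 966 genes (9.95%) were higher and 1251 (12.9%) lower at the smaller depth, and it is called the comparison without neuron-like cells. Since 41.3% of its cells carried at least 3 neuron-like genes, the group is called Hes1-type here and not progenitor. The neuron-like call also takes in dividing cells, since 52.5% of all other P12 cells met it and 1011 of these were mitotic as well.

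Granule progenitor identity differed mainly in Atoh1. This factor (chr6:64729125-64731245, plus strand), which keeps granule precursors dividing and undifferentiated, had 267 CPM (233 UMIs) in Hes1-type cells and 149 CPM (560 UMIs) in others with few excluded genes, 1.80 (1.53 to 2.10). A UMI of Atoh1 was found in 168 of 465 Hes1-type cells, 36.1% (31.8 to 40.7), against 20.2% of all other P12 cells. In microglia-like cells, which should lack it, the share was 2.33% (2 of 86), at a median of 2079 UMIs against 1843 in Hes1-type cells. After each cell was thinned to 500 UMIs, the shares were 12.7% in Hes1-type cells and 6.20% in the others. No Hes1-type cell held more than 6 Atoh1 UMIs. Without neuron-like cells Atoh1 had 280 and 206 CPM, 1.35 (1.09 to 1.67). Barhl1, a homeobox factor downstream of Atoh1, had 414 and 324 CPM, 1.28 (1.13 to 1.44). The rest of this list showed no common direction: Zic1 had 595 and 721 CPM, 0.825 (0.750 to 0.907), and Pax6 227 and 270 CPM, 0.840 (0.718 to 0.979). Of its 11 tested genes 1 was higher and none lower, with a median log2 ratio of -0.00 and summed levels of 2338 CPM in Hes1-type cells and 2309 CPM in the others. The summed ratio of this list was 1.19 (1.14 to 1.24) against all other P12 cells and 1.17 (1.09 to 1.26) without neuron-like cells.

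Genes of neuronal differentiation were lower in Hes1-type cells. Of 22 tested genes 17 were lower and none higher, with a median log2 ratio of -0.88 against 0.01 over all genes. Their summed level was 5864 CPM in Hes1-type cells and 10776 CPM in the others, 0.544 (0.528 to 0.560). Neurod1, which starts granule neuron differentiation, had 529 and 1784 CPM, 0.296 (0.269 to 0.326), and Neurod2, which follows it, 5 UMIs against 115. The adhesion gene Cntn2 of granule cells that have begun to differentiate had 52.7 and 184 CPM, 0.286 (0.208 to 0.386). Stmn2, a microtubule regulator of growing axons, had 546 and 1475 CPM, 0.370 (0.336 to 0.406), and neuronal tubulin Tubb3 206 and 463 CPM, 0.446 (0.38 to 0.52). Myt1 (0.285, 0.174 to 0.443) and St18 (0.319, 0.235 to 0.426), related zinc-finger factors of neurogenesis, were low as well, as was Rab3a of synaptic vesicles (0.230, 0.113 to 0.421). Rbfox3, a splicing factor of mature neurons, had 316 and 297 CPM, 1.07 (0.931 to 1.22), and Sox4 281 and 311 CPM, 0.904 (0.785 to 1.04). Without neuron-like cells, a step that itself used Stmn2, Cntn2 and Nhlh1 but not Neurod1, the level of Neurod1 was 195 CPM in Hes1-type cells and 336 CPM in the others, 0.581 (0.458 to 0.729). The whole list then had a ratio of 0.889 (0.842 to 0.937). Hes1-type cells were not free of Neurod1. A UMI was found in 152 of 465 (32.7%), against 52.5% of all other P12 cells and 15.1% of microglia-like cells.

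Notch pathway genes that the rule did not use were higher as a list. Of 15 tested, 6 were higher and 1 lower, with a median log2 ratio of 0.26. The summed level, over 24 genes of the list, was 542 CPM in Hes1-type cells and 424 CPM in the others, 1.28 (1.15 to 1.42). Without neuron-like cells the ratio was 1.29 (1.11 to 1.49). Among the ligands, Dll3 had 22.9 and 10.6 CPM, 2.16 (1.20 to 3.78), from 20 and 40 UMIs, and Jag1 22.9 and 9.83 CPM, 2.33 (1.28 to 4.12), from 20 and 37. The receptor Notch1 had 13.8 and 4.25 CPM, 3.24 (1.40 to 7.29), from 12 and 16 UMIs. Maml2, a coactivator of the Notch complex, had 1.76 (1.02 to 2.94), and Rbpj, its DNA-binding partner, 0.964 (0.570 to 1.56). The γ-secretase subunit Psenen had 6 and 41 UMIs, 0.632 (0.219 to 1.5), and Numb, which antagonises Notch, 14 and 79 UMIs, 0.765 (0.4 to 1.36). Hes6, a member of the Hes family that promotes neurogenesis and counteracts Hes1, was the gene with most UMIs among those named here: it had 135 CPM in Hes1-type cells and 81.3 CPM in the others, 1.66 (1.33 to 2.06). Hes5, another Notch target, had no UMI in Hes1-type cells and 15 in all other P12 cells. Most of these receptors and ligands rest on few UMIs, and their intervals are wide. In Hes1-type cells Hes6 had 118 UMIs and the whole list 473. The list sums the antagonist Numb with receptors and ligands, so its level is not a measure of Notch activity.

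Stem and glial progenitor genes were higher in part. Of 15 tested, 5 were higher and none lower, with a median log2 ratio of 0.46, although the summed level hardly differed, at 4876 CPM in Hes1-type cells and 4862 CPM in the others. Vim, the vimentin filament of radial glia and progenitors, had 302 and 162 CPM, 1.87 (1.61 to 2.16), and 1.65 (1.35 to 2.00) without neuron-like cells. Olig1, a factor of the oligodendrocyte lineage, had 222 and 130 CPM, 1.72 (1.45 to 2.03), and 1.19 (0.954 to 1.48) without neuron-like cells. Olig2 had 44.7 and 18.3 CPM, 2.44 (1.60 to 3.66), but 0.683 (0.181 to 1.83) when the rule was applied after thinning each cell to 1000 UMIs. The stem cell factors Sox9 and Sox2 had 1.39 (1.14 to 1.68) and 1.39 (0.576 to 3.02), the latter gene from 9 and 28 UMIs. The intermediate filament gene Nes had 1.37 (1.01 to 1.83). Id1, an inhibitor of bHLH factors and a BMP target, had 1.78 (1.16 to 2.66), Id2 1.23 (1.11 to 1.35) and Id3 1.35 (0.787 to 2.24). Fabp7 of radial glia had 0.878 (0.541 to 1.37) and Ptprz1 of glial precursors 0.777 (0.336 to 1.60). With cells of listed types already left out, the astrocyte list still had 410 CPM in Hes1-type cells and 287 CPM in the others, with the transporter Slc1a2 at 287 and 201 CPM and Gfap at 13 and 14 UMIs, while Aqp4 had 1 and 7 UMIs. The oligodendrocyte precursor list had 253 and 281 CPM, with Pdgfra at 89.4 and 148 CPM. The part of astrocyte RNA in the levels of Vim and the Olig genes was not tested.

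The SHH pathway list was slightly higher in sum. None of its 14 tested genes differed 1.5-fold in either direction, the median log2 ratio was 0.18 and the summed level was 5699 CPM in Hes1-type cells and 4990 CPM in the others, 1.14 (1.11 to 1.18). Sfrp1, a secreted Frizzled-related protein abundant in this tumour, had 2839 and 2246 CPM, 1.26 (1.21 to 1.32). It held 2476 of the 4971 UMIs of the list in Hes1-type cells, so the summed ratio leans heavily on this gene. Ptch1 had 182 and 134 CPM, 1.36 (1.13 to 1.63), Ccnd1, the G1 cyclin that SHH induces, 663 and 540 CPM, 1.23 (1.12 to 1.35), and the pathway effector Gli1 79.1 and 70.4 CPM, 1.12 (0.849 to 1.47). Ccnd2 went the other way, at 1091 and 1270 CPM, 0.859 (0.801 to 0.921). The decoy receptor Hhip had 0.964 (0.570 to 1.56) here but 0.510 (0.317 to 0.781) against all other P12 cells. Without neuron-like cells the ratio of the list was 1.02 (0.980 to 1.07). The SHH list therefore differed by less than 1.2-fold in each comparison at P12.

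Mxd4 belongs to the network of MYC, MAX and MXD factors, and the other members were read for that reason. Myc, which drives growth genes, had 50.4 CPM (44 UMIs) in Hes1-type cells and 25.8 CPM (97 UMIs) in the others, 1.96 (1.34 to 2.82). Mycl had 84.8 and 57.9 CPM, 1.46 (1.11 to 1.92), and Mycn, the MYC factor that SHH induces in granule precursors, 376 and 327 CPM, 1.15 (1.02 to 1.30). Their partner Max had 56.2 and 79.4 CPM, 0.707 (0.512 to 0.959). Mxd3, a relative of Mxd4 found in dividing granule precursors, had 6 and 71 UMIs, 0.365 (0.130 to 0.834). The summed list had 1.08 (0.993 to 1.17), with 1 of 11 tested genes higher and 2 lower. Without neuron-like cells Mycn had 1.03 (0.858 to 1.22) and Myc 1.60 (0.933 to 2.68), intervals that hold 1.

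Extracellular matrix genes stood next to the marker Mfap2. Of 12 tested, 5 were higher and none lower, with a median log2 ratio of 0.45, and the summed level was 715 CPM in Hes1-type cells and 493 CPM in the others, 1.45 (1.32 to 1.59). Bcan, the brain proteoglycan brevican of glia and neural progenitors, had 50.4 and 18.3 CPM, 2.75 (1.84 to 4.07), and 2.17 (1.27 to 3.63) without neuron-like cells. Mfap4, a further microfibril protein, had 109 and 61.9 CPM, 1.76 (1.37 to 2.24). Eln, the elastin gene, had 221 and 194 CPM, 1.14 (0.967 to 1.34). Col4a1 of basement membranes had 2.57 (1.63 to 4), but 1 Hes1-type cell held 11 of its 35 UMIs. Without neuron-like cells the list had 1.32 (1.17 to 1.5). Of the endoplasmic reticulum list around Rcn3, none of 16 tested genes was 1.5-fold apart, though the collagen chaperone Serpinh1 had 1.33 (1.07 to 1.64) and Rcn1 1.30 (1.08 to 1.55).

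Metabolic lists were closer to 1. Around Thrsp, the fatty acid synthesis list had 893 CPM in Hes1-type cells and 838 CPM in the others, 1.07 (0.984 to 1.15), with the lipogenic factor Srebf1 at 1.36 (1.14 to 1.61), Acly at 1.06 (0.772 to 1.44) and Mid1ip1, a relative of Thrsp, at 0.635 (0.343 to 1.10). Cholesterol synthesis was lower, at 546 and 726 CPM, 0.751 (0.680 to 0.829), with 5 of 16 tested genes lower and none higher, among them Mvk (0.387, 0.151 to 0.836) and Sqle (0.621, 0.428 to 0.879). Without neuron-like cells the cholesterol interval held 1, at 0.927 (0.796 to 1.08). Glycolysis had 1140 and 1022 CPM, 1.12 (1.04 to 1.20). Immediate early genes had 1.04 (0.919 to 1.17) and adhesion and guidance genes 0.936 (0.873 to 1.00). Interferon-response genes had 0.831 (0.580 to 1.16), summed over 12 genes of which 3 had enough UMIs to be tested. In the last list the guidance receptor Robo2 had 227 and 162 CPM, 1.40 (1.19 to 1.65), the chemokine receptor Cxcr4 of the outer granule layer 60.8 and 36.7 CPM, 1.66 (1.18 to 2.29), and Ncam1 187 and 278 CPM, 0.672 (0.566 to 0.793). With both sides limited to 1 excluded gene, the summed ratio was 0.747 (0.723 to 0.772) for G2 and M phase and 0.856 (0.832 to 0.881) for S phase. For CDK inhibitors and exit genes it was 0.866 (0.795 to 0.942). This limit is stricter in deeper cells. Before typed cells were left out, Hes1-type cells had a median of 1843 UMIs against 1509.5 in the others. Depth was not set equal here, so no reading of cycle exit rests on the cycle levels. Mki67, a proliferation marker, had 260 and 434 CPM, 0.600 (0.520 to 0.690).

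**Figure D2:**
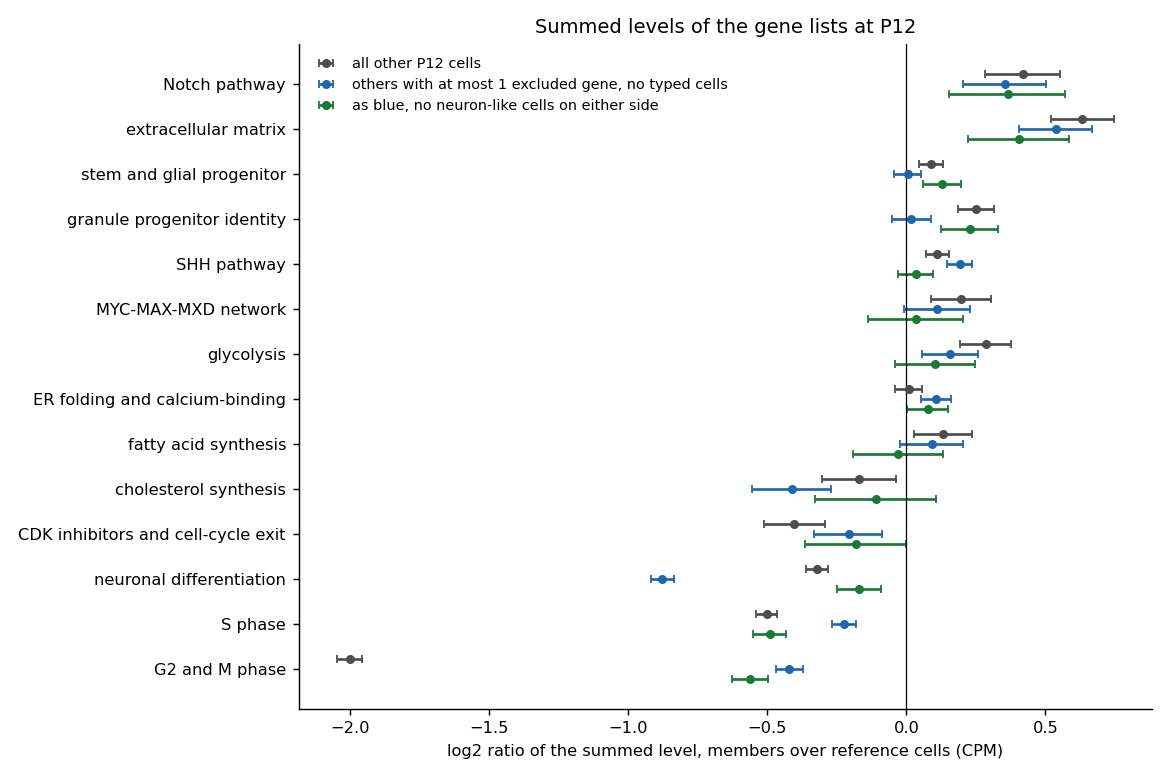
Log2 ratio of the summed level (CPM) of each gene list at P12 in Hes1-type cells over all other cells (grey), over others with at most 1 excluded gene without typed cells (blue), and over these without neuron-like cells on either side (green), with exact 95% counting intervals. The Notch and matrix lists lie above 0 in all 3 comparisons, the neuronal list below 0, and the G2 and M phase list far below 0 only against all other cells.

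Beyond the functional lists, a few genes stood out against others with few excluded genes. Gas6, a ligand of TAM receptor kinases, had 72.2 CPM (63 UMIs) in Hes1-type cells and 26.3 CPM (99 UMIs) in the others, 2.75 (1.97 to 3.80). The calcium channel subunit gene Cacng5 had 40.1 and 13.8 CPM, 2.90 (1.84 to 4.54). Sox8, a SoxE factor of glial and neural progenitors, had 32.1 and 11.2 CPM, 2.88 (1.72 to 4.75). Sdpr, a caveola protein, had the most UMIs of these, with 479 CPM (418 UMIs) in Hes1-type cells and 254 CPM (955 UMIs) in the others, 1.89 (1.68 to 2.12), and 1.54 (1.33 to 1.78) without neuron-like cells. Cpxm2 (3.49, 1.86 to 6.44) and the receptor gene Calcrl (3, 1.72 to 5.13) rest on 21 and 25 UMIs in Hes1-type cells. Ctsf, a lysosomal protease, and the stress-response gene Ddit4 were 2.78-fold (1.96 to 3.86) and 2.24-fold (1.81 to 2.74) higher against all other P12 cells, but 1.44-fold (0.985 to 2.06) and 1.48-fold (1.18 to 1.84) against those with few excluded genes. Gdpd5 stood at the lower end beside the neuronal and mitotic genes already named, with 2 UMIs in Hes1-type cells and 86 in the others.

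Levels moved with the number of markers a cell carried. Among cells with at most 1 excluded gene and of no listed type, Atoh1 had 133.4 CPM in 1365 cells with no marker, 168.5 in 949 cells with 1, 261.4 in 323 cells with 2 and 281.7 in 120 cells with 3 or more. Vim had 144.7, 183.1, 290.1 and 330.7 CPM over the same steps, and Hes6 70.9, 94.6, 127.5 and 155.1 CPM. Bcan had 17.5, 19.4, 39.9 and 77.6 CPM. Neurod1 ran down these steps, with 2224, 1219, 577 and 404 CPM, as did Stmn2 with 1750, 1123, 598 and 412 CPM and Mki67 with 477, 378, 281 and 208 CPM. Mcm6 had no such order, at 219, 262, 289 and 159 CPM. The Notch list ran from 388 CPM with no marker through 471 and 518 to 604 CPM. Between 2 markers and 3 or more, the intervals of Atoh1 (222.9 to 304.6 and 219.2 to 356.5 CPM) and of Vim overlap, whereas those of Neurod1 (519 to 640 and 329 to 492 CPM) do not. Median depth moved with the number of markers too, at 1427, 1597, 1806 and 1941 UMIs. With depth set equal by applying the rule after thinning to 1000 UMIs, the ratios against others with few excluded genes were 1.92 for Atoh1, 1.84 for Vim, 1.92 for Hes6, 0.243 for Neurod1 and 1.42 for the Notch list.

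**Figure D3:**
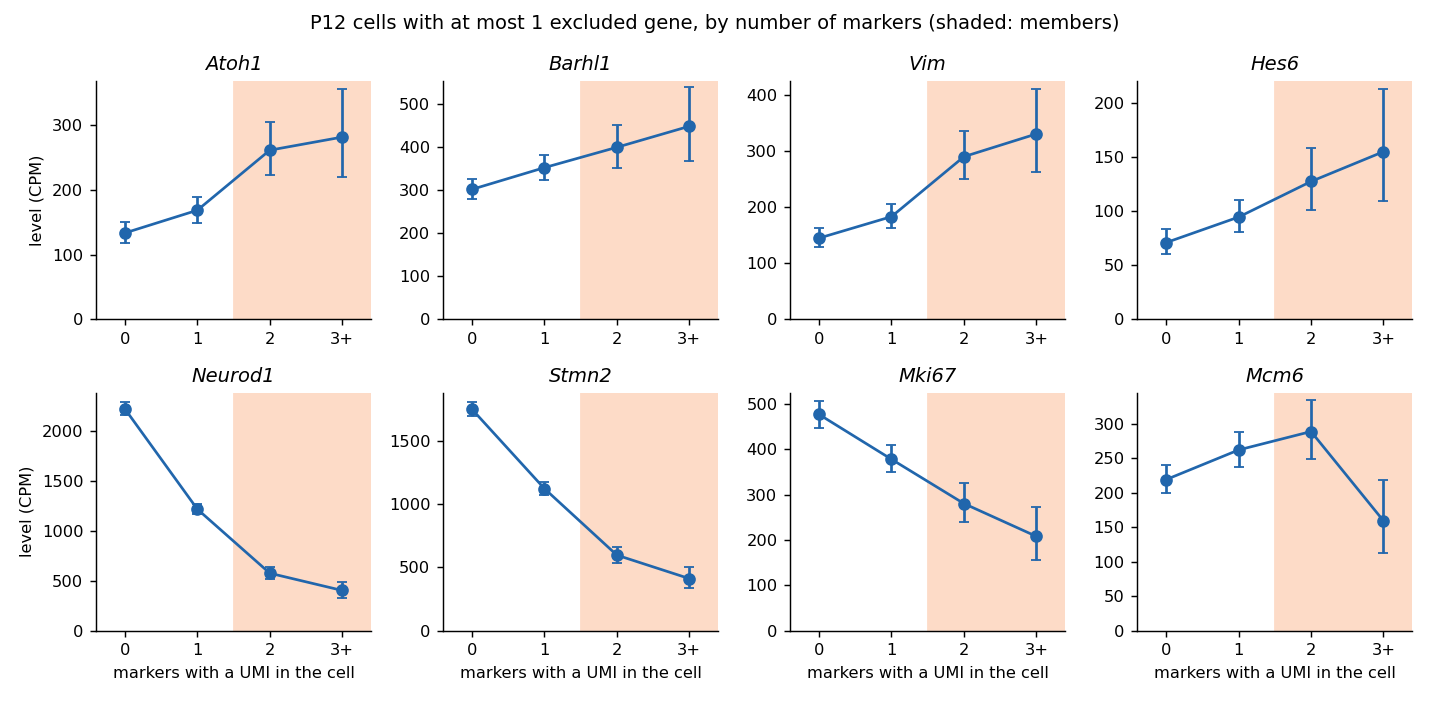
Level (CPM) of 8 genes in P12 cells with at most 1 excluded gene, typed cells left out, by the number of the 7 markers with a UMI (horizontal axis), with exact 95% counting intervals; shading marks Hes1-type cells, called members on the plot. Atoh1, Barhl1, Vim and Hes6 are higher, and Neurod1, Stmn2 and Mki67 lower, in cells with more markers.

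Hes1-type cells were also placed beside classes of the other P12 cells defined by at least 2 excluded genes of a kind, or by neuron-like or microglia markers. These classes overlap, as 1011 cells were both mitotic and neuron-like. For the levels, typed cells were left out of the Hes1-type (443 cells), mitotic, S phase and neuron-like cells. They were kept in the glial and microglia-like cells. Atoh1 had 267 CPM in Hes1-type cells, against 113 CPM in 1809 mitotic cells, 125 CPM in 674 S phase cells, 113 CPM in 2680 neuron-like cells and 2 UMIs in 82 microglia-like cells. In the 60 glial cells Atoh1 had 135 CPM (82.6 to 209). Vim had 302 CPM (266 to 340) in Hes1-type cells and 385 CPM (292 to 499) in glial cells, and these intervals overlap. In Hes1-type cells it was above the 222 CPM of mitotic, 184 CPM of S phase and 150 CPM of neuron-like cells. Neurod1 was close to its level in S phase cells, with 529 CPM in Hes1-type cells (481 to 579) and 560 CPM in S phase cells (526 to 595), and intervals that overlap. Neuron-like cells had 1579 CPM of Neurod1. Mcm6 had 252 CPM in Hes1-type cells (220 to 288) and 279 CPM in S phase cells (256 to 305), but 114 CPM in mitotic cells. The rule allows 1 excluded gene. With typed cells kept, the replication gene Hist1h1b had a UMI in 71 of the 465 Hes1-type cells (15.3%), at a median depth of 1843 UMIs. The rule itself holds this share down. It was 16.8% in the other P12 cells with at most 1 excluded gene, at a median of 1509.5 UMIs. Microglia-like cells, most of them outside the rule, had 27.9% at a median of 2079 UMIs. Mki67 had 260 CPM in Hes1-type cells, under the 667 CPM of microglia-like cells and the 2755 CPM of mitotic cells. Free RNA in the droplets adds to the levels in every class, and its part was not tested.

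**Figure D4:**
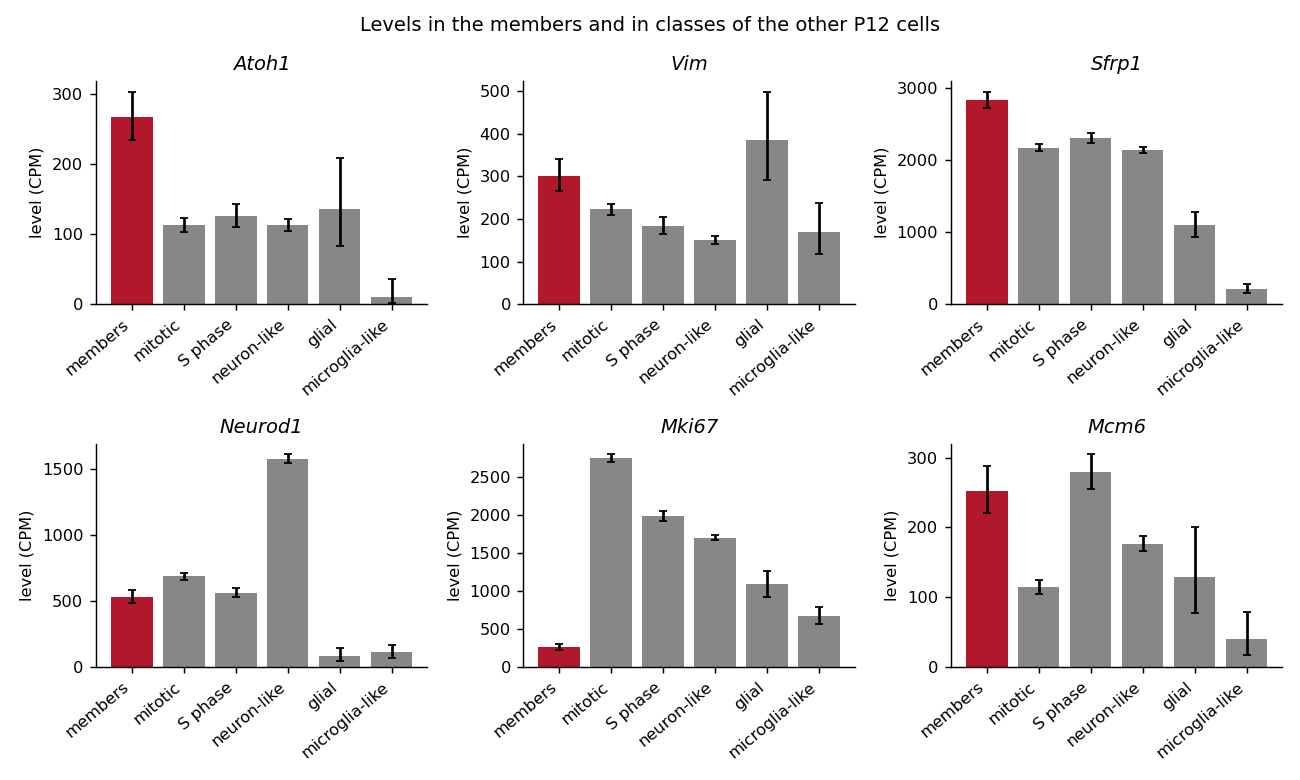
Level (CPM) of 6 genes in Hes1-type cells (red, left, called members on the plot) and in 5 classes of the other P12 cells (grey), with exact 95% counting intervals. Typed cells were left out except in the glial and microglia-like classes. Atoh1 and Sfrp1 are highest in Hes1-type cells, Neurod1 in neuron-like and Mki67 in mitotic cells. The Vim intervals of Hes1-type and glial cells overlap, as do the Mcm6 intervals of Hes1-type and S phase cells.

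Among themselves, Hes1-type cells differed by whether they carried Hes1. With listed types left out, 185 had a Hes1 UMI and 258 met the rule through other markers, at median depths of 1843 and 1856 UMIs. Neurod1 had 297 CPM in cells with Hes1 and 689 CPM in those without, 0.431 (0.344 to 0.537), and Stmn2 311 and 708 CPM. Vim had 390 and 241 CPM, 1.62 (1.26 to 2.08), Olig1 300 and 169 CPM, 1.78 (1.33 to 2.39), Hes6 188 and 98.9 CPM, 1.90 (1.30 to 2.79), and Id1 64.5 and 23.3 CPM, 2.77 (1.32 to 6.11). The intervals of Atoh1, at 289 and 252 CPM, 1.14 (0.875 to 1.49), held 1, as did those of Sfrp1 (0.955, 0.880 to 1.04) and Mki67 (1.04, 0.790 to 1.36). Cells without Hes1 still differed from the others with few excluded genes, which had 1784 CPM of Neurod1 and 162 CPM of Vim.

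The same rule was applied to the P24-30 library, and levels were compared only within it, because the files were made differently. In cells chosen by the other 6 markers, Hes1 had 48.2 CPM against 27.5 CPM in the other kept cells, 1.75 (1.16 to 2.55), and Mxd4 123.7 and 65.7 CPM, 1.88 (1.33 to 2.60). The intervals of the other 5 held 1, with Hey1 at 0.943 (0.645 to 1.33), Rcn3 at 1.43 (0.896 to 2.19), Mgarp at 0.790 (0.335 to 1.60), Thrsp at 0.668 (0.284 to 1.34) and Mfap2 at 2.04 (0.391 to 6.79) from 3 and 22 UMIs. A single cell held 83 of the 114 Thrsp UMIs of cells that met the rule. Neuron-like markers were on 156 of the 260 cells (60.0%) and on 59.3% of others with few excluded genes.

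Set against 3115 other P24-30 cells with few excluded genes, the 238 cells that met the rule and were of no listed type had 601 of 9283 tested genes (6.47%) at least 1.5-fold higher and 1166 (12.6%) lower, with a median log2 ratio of -0.04. Vim had 164 CPM in cells that met the rule and 78.3 CPM in the others, 2.10 (1.68 to 2.60), and Bcan 14.8 and 4.53 CPM, 3.26 (1.36 to 7.05), from 9 and 30 UMIs. Gas6 had 2.65 (1.19 to 5.39), Robo2 1.99 (1.54 to 2.54), Sox9 1.59 (1.25 to 1.99), Id2 1.36 (1.19 to 1.55) and Serpinh1 1.78 (1.31 to 2.37). Fkbp7, a prolyl isomerase of the endoplasmic reticulum, had 54.2 and 17.8 CPM, 3.04 (2.00 to 4.51), beside 2.01 (1.38 to 2.87) at P12. Id3 had 41.0 and 7.69 CPM, 5.33 (3.17 to 8.77), against 1.35 at P12, and Axin2, a feedback inhibitor of WNT signalling, 3.03 (1.80 to 4.91) against 0.820 (0.474 to 1.35). Neurod1 had 686 and 1177 CPM, 0.583 (0.527 to 0.643), and Stmn2 0.812 (0.751 to 0.878). Atoh1, at 105 and 86.0 CPM, had 1.22 (0.928 to 1.58), Hes6 1.28 (0.912 to 1.76), Myc 1.12 (0.582 to 1.99) and Mfap4 0.930 (0.558 to 1.47), all with intervals that hold 1. The Notch list had 487 CPM in cells that met the rule and 469 CPM in the others, 1.04 (0.920 to 1.17), the matrix list 1.11 (0.927 to 1.32) and the neuronal list 0.805 (0.780 to 0.830). Whether a ratio differs between the ages was not tested, since the ages also differ in library and in counting and these cannot be told apart.

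**Figure D5:**
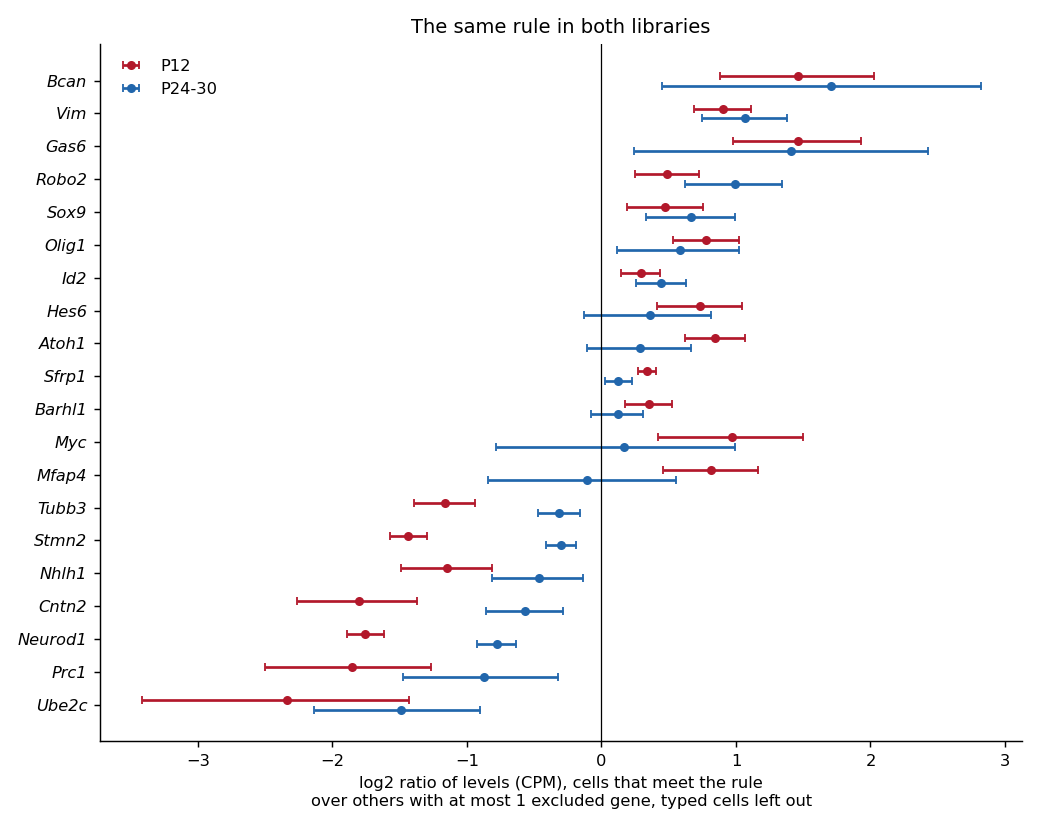
Log2 ratio of the level (CPM) of 20 genes in cells that met the rule over other cells with at most 1 excluded gene, typed cells left out, at P12 (red) and P24-30 (blue), with exact 95% counting intervals. Vim, Bcan and Gas6 lie above 0 and Neurod1, Cntn2 and Ube2c below 0 in both libraries, while the intervals of Atoh1 and Hes6 reach 0 at P24-30.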

How the data were processed

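The P12 file, as the authors deposited it, holds whole-number counts per gene (24858) and barcode (6000), and the P24-30 file natural log values for 19714 genes and 4991 cells. The deposited natural log values scale each cell to 10000 and add 1 before the log; undoing this gave whole UMIs, within 0.001, for 100% of 6195642 non-zero entries. Per the submitters' processing notes CASAVA and mm10 were used. The sources used here do not give the aligner, counter or annotation, nor whether counts were collapsed by molecular barcode. They were taken as UMIs. Strand-specific counting is not stated, so overlapping antisense genes and near-identical copies cannot be told apart.

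Cells under 500 UMIs (9 at P12) or over 20% mitochondrial UMIs (268) were removed. No doublets were removed; an alternative left out the 5% of cells with most UMIs. Summed UMIs were scaled to CPM and compared by ratio with an exact conditional 95% interval (Clopper-Pearson on the split of UMIs). Poisson intervals were used for levels and Clopper-Pearson intervals for shares. Genes needed 100 UMIs over the kept cells, and the 7 markers and 11 excluded genes were left out of the counts. The summed level of a list also took in its genes under 100 UMIs, again without the markers and excluded genes. On simulated counts the intervals were checked. Thinning used seed 1. Python 3.11.15, numpy 2.4.6, scipy 1.17.1 and pandas 2.3.3 were used. Gene positions come from the GENCODE mm10 annotation, and promoters from RefSeq.

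The members and the 17 functional and 14 cell type lists were chosen with earlier results of these data known. The genes named are the markers, the 12 highest and 12 lowest by ratio against all other cells (by the 95% bound nearest 1), the 8 highest and 8 lowest against cells with few excluded genes, and the 2 highest and 2 lowest of each list. Other names were chosen after their values were seen, most of them list members or genes at the ends of the comparison without typed cells, which was itself added afterwards.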

Additional observations from a re-analysis of the deposited data

How the results depend on the processing

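The share of cells that met the rule was 2.20% with at least 3 markers, 4.42% with no excluded gene and 4.80% when the rule was applied after thinning to 1000 UMIs, against 8.13% as reported. Genes higher against all other cells numbered 1450 with at least 3 markers, 373 with cells thinned to 500 UMIs, 1209 with at least 50 UMIs per gene and 232 with at least 300, and genes lower 1838 with at least 3 markers and 490 with at least 300 UMIs per gene. The minimum of UMIs per gene also sets how many genes are tested, so the counts at 50 and 300 UMIs are not comparable as shares. In all, 9 values of the share and the gene counts moved and 33 did not. The genes held by single cells turned round. Ttr had 0.321 with at most 10% mitochondrial UMIs, 0.0385 with at least 3 markers, 0.180 with the rule after thinning and 0.265 without the 5% of cells with most UMIs. Enpp2 had 0.335 with at least 3 markers, Rgs5 had 0 with no excluded gene, and Atp1b1 had 0.329 without cells of any listed type and 0.301 when these were also set against cells with at most 1 excluded gene. Among the other values, 264 moved and 689 did not. This total is no measure of stability. The minimum of 50 or 300 UMIs per gene changes which genes are tested and not their ratios, and there 63 and 46 values stayed. Against others with at most 1 excluded gene, without typed cells, 41 moved, 1 turned round and 18 stayed. Without neuron-like cells as well, 43 moved and 16 stayed. Across the alternatives run, Atoh1 ranged from 1.35, without neuron-like cells, to 2.26, with no excluded gene. Leaving out cells of any listed type, leaving out neuron-like cells and combining thinning with the reference of few excluded genes were chosen after seeing the data. No paired analysis was possible because each age has 1 library. Few UMIs per cell limit genes under about 100 UMIs, for which only wide intervals can be given.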

Other observations

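The P24-30 cells carry 16 tags, G1 to G16, in their names that no label explains, so they were put in no comparison. The share of kept cells that met the rule was 11.3% (22 of 194) for tag G4, 10.2% (34 of 334) for G7, 9.89% (28 of 283) for G15 and 9.28% (35 of 377) for G5. It was 0.283% (1 of 353) for G1 and 0.480% (2 of 417) for G16, whose cells were deeper, at medians of 3269 and 2965 UMIs against 1758.5 in G4. Tags G8 (35 cells) and G9 (11 cells) had no such cell. The exact intervals of G4 (7.24 to 16.7) and G1 (0.00717 to 1.57) do not meet.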
